A study of Homo sapiens with 9 samples.

Results

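The genes studied here were 10 genes of lipid droplets, chosen by symbol from the 20777 genes that the deposited tables list: the perilipins PLIN2, PLIN3, PLIN4 and PLIN5, the triglyceride synthesis enzymes DGAT1, DGAT2 and LPIN1, the lipases PNPLA2 and PNPLA3, and the lipase inhibitor G0S2. All 10 were listed, and 9 passed the filter on low counts, which PLIN5 did not. RNA was sequenced from LX-2 cells, an established line of human hepatic stellate cells of the genotype that the labels spell "wide type". The 9 libraries formed 3 groups of 3, labelled by treatment as control (none given), TGF-β (day 1) and TGF-β + uridine (day 1). TGF-β is the growth factor that turns stellate cells into matrix-producing myofibroblasts, and in the study's protocol the uridine was added in fresh medium after the TGF-β. LX-2 is 1 line in culture, and the labels do not say that the 3 libraries of a group came from separate cultures, so p-values measure only the spread between these libraries, which may be technical.

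A lipid droplet is a core of triglyceride and sterol esters under a single layer of phospholipid. Perilipins coat that layer and set the access of lipases to the core. Triglyceride is built stepwise, with lipins making diacylglycerol and the DGAT enzymes adding the last acyl chain, and it is taken apart by lipases of which PNPLA2 (ATGL) acts first. Quiescent stellate cells of the liver are known for retinoid-rich droplets, which they lose on activation.

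In these cells 1 perilipin, PLIN4, was lower after TGF-β by 4.54-fold and was 1.79-fold higher with uridine than with TGF-β alone, although the latter difference did not pass the test across all genes. PLIN2 and PLIN3, which supplied nearly all perilipin transcripts, were at like levels in the 3 groups. PNPLA2 and its inhibitor G0S2 were ordered in opposite directions over the group means, with PNPLA2 highest in control cells and G0S2 highest with uridine. Neither gene passed the test across all genes in any comparison. For PNPLA2 the control and TGF-β libraries overlapped in normalized CPM, and for G0S2 the TGF-β and uridine libraries did. The libraries of the 3 groups overlapped for DGAT1 and LPIN1, and for DGAT2 and PNPLA3 they overlapped in normalized CPM while 1 group stood apart in FPKM. The share of all genes with a group apart in FPKM was not computed.

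PLIN4, PLIN5 and PLIN3 lie on the same strand of the same stretch of chromosome 19 (GRCh38, GENCODE v29 annotation). PLIN4 (ENSG00000167676) spans chr19:4502180-4518465, PLIN5 (ENSG00000214456) spans chr19:4522531-4535224 and PLIN3 (ENSG00000105355) spans chr19:4838341-4867768, all on the minus strand, whereas PLIN2 (ENSG00000147872) spans chr9:19108375-19149290 on the minus strand. Of the enzymes, DGAT2 (ENSG00000062282) spans chr11:75759512-75801535, PNPLA2 (ENSG00000177666) chr11:818902-825573, PNPLA3 (ENSG00000100344) chr22:43923739-43964488 and LPIN1 (ENSG00000134324) chr2:11677595-11827409, and the inhibitor G0S2 (ENSG00000123689) spans chr1:209675420-209676388, all on the plus strand. Promoter sequences were taken from RefSeq (GRCh38.p14) and run from 250 bases before to 50 bases after a start that the RefSeq table gives, 5′ to 3′ on the strand of the gene. For PLIN2 that start lies inside the GENCODE span given above, not at its end, so positions refer to the RefSeq start. An entry was matched for 7 of the 10 genes, with 3 windows for LPIN1 and 1 for each of the others. Those of the 4 perilipins are shown because PLIN4 was the one perilipin called, and capitals mark every match, on either strand, to the motifs listed after them. The windows are chr19:4518437-4518736 for PLIN4, chr19:4535175-4535474 for PLIN5, chr19:4867618-4867917 for PLIN3 and chr9:19127443-19127742 for PLIN2.
PLIN4: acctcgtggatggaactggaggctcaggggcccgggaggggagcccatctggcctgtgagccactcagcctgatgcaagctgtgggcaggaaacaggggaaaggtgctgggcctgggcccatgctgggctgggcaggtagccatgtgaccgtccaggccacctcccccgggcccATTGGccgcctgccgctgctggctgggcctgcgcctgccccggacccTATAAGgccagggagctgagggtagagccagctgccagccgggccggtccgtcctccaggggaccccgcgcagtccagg
PLIN5: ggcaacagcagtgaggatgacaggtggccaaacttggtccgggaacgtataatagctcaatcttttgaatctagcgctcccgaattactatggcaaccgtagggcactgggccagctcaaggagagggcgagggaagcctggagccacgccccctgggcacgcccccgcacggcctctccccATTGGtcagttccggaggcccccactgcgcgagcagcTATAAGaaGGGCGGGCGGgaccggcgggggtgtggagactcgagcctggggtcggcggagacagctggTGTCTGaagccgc
PLIN3: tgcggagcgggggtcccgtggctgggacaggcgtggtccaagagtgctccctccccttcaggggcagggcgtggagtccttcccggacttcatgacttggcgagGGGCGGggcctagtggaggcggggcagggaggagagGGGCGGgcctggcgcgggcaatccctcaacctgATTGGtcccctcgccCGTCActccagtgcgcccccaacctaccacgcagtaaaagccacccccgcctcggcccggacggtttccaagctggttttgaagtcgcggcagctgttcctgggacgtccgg
PLIN2: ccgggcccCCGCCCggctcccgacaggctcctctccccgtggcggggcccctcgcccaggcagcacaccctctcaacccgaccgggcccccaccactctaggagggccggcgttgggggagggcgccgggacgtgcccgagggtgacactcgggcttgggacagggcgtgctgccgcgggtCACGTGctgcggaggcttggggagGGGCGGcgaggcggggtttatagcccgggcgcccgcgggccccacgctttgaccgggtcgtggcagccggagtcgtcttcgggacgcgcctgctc

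A set of 9 short motifs was searched on both strands of each window, and shares are over 35116 promoters of the same length. The TATA box, as TATAAG, started at position -29 of PLIN4 counted from the RefSeq start, at -31 of PLIN5 and at -28 of G0S2, and was found in 5.593% of all promoters. The CCAAT box, printed as its reverse complement where it lies on the other strand, started at -76 of PLIN4, at -68 of PLIN5 and at -77 of PLIN3, and was found in 34.61%. PLIN4 and G0S2 held no GC box (GGGCGG, 44.95% of promoters), which PLIN2, PLIN3, PLIN5 and PNPLA2 held. LPIN1 held it in the 2 windows that lie within the gene and not in the window at the GENCODE start. The E-box CACGTG lay at -69 of PLIN2 and in 7.256% of promoters. The CRE half-site TGACG lay at -62 of PLIN3 and in 24.55%, and the SMAD element CAGACA at 38 of PLIN5 and in 16.88%. PNPLA2 held the nuclear receptor half-site AGGTCA at -239, found in 13.83%. None of the 7 genes held the AP-1 site TGANTCA (7.709% of promoters) or the half-site repeated with 1 base between (0.02278%). A match describes letters in the window and is not a binding site.

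Library totals ran from 40539751 to 41467124 reads on genes, at which 3 reads correspond to 0.0723 to 0.0740 CPM, the read count scaled to a fixed library size and used below with the TMM factors described next. The control libraries varied most, with normalization factors (TMM, which scale each library for its makeup) from 0.820 to 1.16, and the slope of expression on the GC content of genes ran from 5.65 in control replicate 1 to -4.10 in control replicate 3. The same slope spanned 0.54 to -0.32 in the TGF-β group and 2.28 to -2.69 in the uridine group. ACTA2, the smooth muscle actin that marks stellate cell activation, rose after TGF-β from 9.97 ± 3.57 to 29.8 ± 5.11 CPM (SD, n = 3; log2 fold change 1.58, SE 0.26, adjusted p = 0.0106, edgeR quasi-likelihood test). Of 16 stellate cell and myofibroblast markers 15 were listed and 8 reached 1 FPKM (fragments per kilobase of gene, scaled to library size), among them ACTA2 and COL1A1, but COL1A2 and HAND2 had at most 1 read in any library. Of 6 epithelial markers, the keratins KRT8, KRT18 and KRT7 were high, at means of 2475, 1903 and 687 FPKM in control. KRT19 was at 0.797, CDH1 at 0.125 and EPCAM at 0.0368 FPKM in control. KRT8, KRT18 and KRT7 made up nearly all of the summed FPKM of the 6. That sum was 4290 to 6091 in control, 5270 to 5430 in TGF-β and 4350 to 4946 in uridine libraries. The label of a stellate cell line was thus met by its markers only in part. No hepatocyte marker reached 1 FPKM, and of the adipocyte markers only CFD did. In bulk RNA, fewer cells of a type and less RNA per cell cannot be told apart. The part of these marker levels in the results was not tested.

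Levels were first ordered per length, as FPKM. In control cells PNPLA2 stood first at 62.3 ± 4.36, followed by PLIN3 at 43.4 ± 6.13 and PLIN2 at 34.5 ± 4.23 FPKM, whose ranges overlapped each other. G0S2 came next at 14.1 ± 1.72, and DGAT1 at 4.57 ± 0.529 overlapped DGAT2 at 4.38 ± 0.849 FPKM. PNPLA3 at 3.17 ± 0.0863, PLIN4 at 1.87 ± 0.135 and LPIN1 at 1.70 ± 0.955 FPKM closed the list of tested genes, the last pair with overlapping ranges. With TGF-β the first 5 places were the same, and PLIN4 at 0.416 ± 0.0726 FPKM stood below LPIN1 at 1.36 ± 0.112 without overlap. With uridine PNPLA2 at 45.5 ± 0.862 and PLIN3 at 44.3 ± 1.23 FPKM overlapped, and PLIN4 at 0.767 ± 0.104 FPKM was again below LPIN1 at 1.39 ± 0.422.

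PLIN4 was thus a minor perilipin in these cells. Of the summed FPKM of the 4 perilipins, PLIN3 held 54.2% ± 6.21 in control, 57.0% ± 1.00 in TGF-β and 56.2% ± 1.29 in uridine libraries. PLIN2 held 43.4% ± 6.24, 42.5% ± 1.09 and 42.8% ± 1.15 in the same order. PLIN4 held 2.35% ± 0.194, 0.519% ± 0.0902 and 0.974% ± 0.133. The sum itself was 79.8 ± 2.26, 80.1 ± 0.385 and 78.7 ± 0.646 FPKM, so the perilipin total stayed within 1 SD of the control mean while the PLIN4 part of it changed.

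PLIN4, a perilipin best known from adipocytes where it coats small new droplets, had 654, 692 and 609 reads in the control libraries, 169, 148 and 118 with TGF-β, and 288, 226 and 290 with TGF-β and uridine. The normalized CPM values were 19.4, 16.5 and 12.8 in control, 4.25, 3.58 and 2.87 with TGF-β, and 6.70, 5.91 and 6.55 with uridine. The 3 groups did not overlap, with every uridine library above every TGF-β library and below every control library. TGF-β libraries were lower than control by 2.18 on the log2 scale (fitted log2 fold change -2.18, SE 0.22). Uridine libraries were also lower than control (log2 fold change -1.34, SE 0.21), by 2.54-fold. These values were known when the gene was chosen and are given without a test. The lower call held in each of 21 alternative settings for both comparisons. Those settings refit the same libraries and are no independent support.

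Between the uridine and TGF-β groups PLIN4 differed by 0.84 on the log2 scale (SE 0.21). Its adjusted p was 0.284 in edgeR's quasi-likelihood test over 13384 genes, with an unadjusted p of 0.00348, and all 3 uridine libraries were above all 3 TGF-β libraries. The exact two-sided permutation test gave p = 0.1, the smallest that 3 libraries against 3 allow. When the GC slope of each library entered the fit as a covariate, the log2 fold change was 0.86 and the adjusted p 0.00213, past the threshold. In that fit 1337 genes were called higher and 1217 lower, of 13384 tested. The alternatives gave adjusted p-values from 0.00213 to 0.878. All these p-values rest on the TGF-β libraries, whose values against control were known when the gene was chosen. They are thus not independent of that choice. PLIN4 shares 32 exonic bases with HDGFL2 on the other strand, a gene of 4109 to 5899 reads per library, and the strand setting of the counting was not given in the sources used here. HDGFL2 differed by -0.14 on the log2 scale after TGF-β and by -0.17 between the uridine and TGF-β groups.

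**Figure D1:**
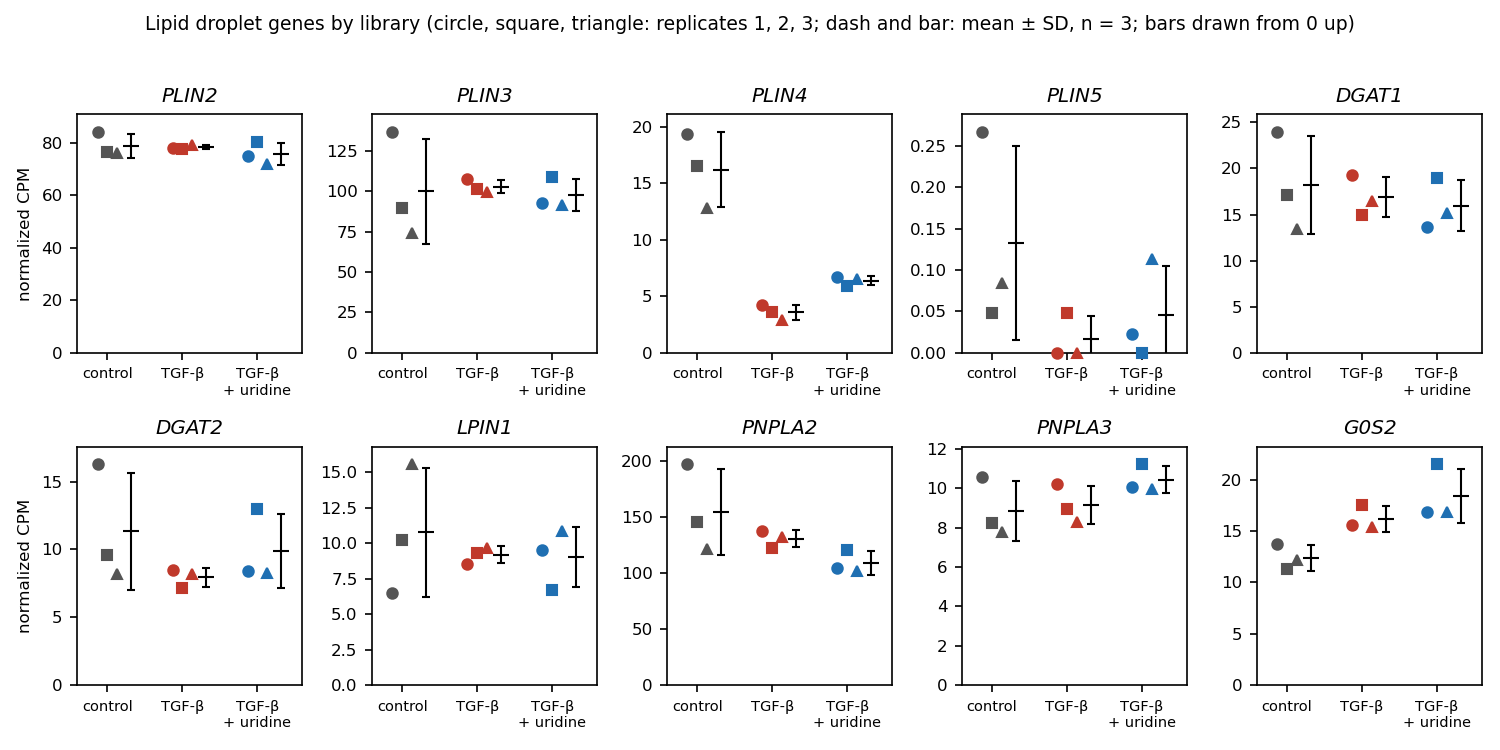
Normalized CPM (vertical axis, from 0) of the 10 lipid droplet genes in each of the 9 libraries, by group, with the mean and SD of 3 libraries beside the points. The PLIN4 points fall in 3 separate bands around 16.2, 3.57 and 6.38 CPM, while the PLIN2 and PLIN3 groups overlap and the highest PLIN5 point is at 0.267 CPM.

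PLIN2 (adipophilin), the perilipin found on droplets of most tissues, had normalized CPM of 84.1, 76.3 and 76.3 in control, 78.1, 77.6 and 79.2 with TGF-β, and 75.1, 80.3 and 71.9 with uridine. All 3 ranges overlapped. Its log2 fold changes were -0.01 after TGF-β and -0.06 against control with uridine (SE 0.09 each). The value between uridine and TGF-β was -0.05 (SE 0.09, edgeR adjusted p = 0.989, exact permutation p = 0.4), with the smallest SE of the 9 tested genes.

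PLIN3 (TIP47), which moves from the cytosol to growing droplets, had 136.7, 89.4 and 74.1 CPM in control, 107.4, 101.6 and 99.8 with TGF-β, and 92.5, 109.2 and 91.5 with uridine. The control libraries spanned the range of both treated groups. The log2 fold changes were 0.04 after TGF-β, -0.03 against control with uridine and -0.08 between uridine and TGF-β (SE 0.20 each; for the last, edgeR adjusted p = 0.993 and exact permutation p = 0.5).

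PLIN5, the perilipin of oxidative tissues that ties droplets to mitochondria, was close to the limit of detection. It had 9, 2 and 4 reads in control, 0, 2 and 0 with TGF-β, and 1, 0 and 5 with uridine, so levels above 3 reads per library were seen in control replicates 1 and 3 and in uridine replicate 3. No fold change is given. PLIN1, the perilipin of mature adipocytes and no member of the set, had at most 5 reads in any library.

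DGAT1 and DGAT2 catalyse the same last step of triglyceride synthesis and are unrelated in sequence. DGAT1 had 23.9, 17.1 and 13.4 CPM in control, 19.3, 14.9 and 16.5 with TGF-β, and 13.6, 19.0 and 15.2 with uridine. The groups overlapped, with log2 fold changes of -0.10, -0.19 and -0.08 for TGF-β, for TGF-β with uridine and for uridine over TGF-β (SE 0.23 each; adjusted p = 0.993 for the last, edgeR). DGAT1 shares 139 exonic bases with HSF1 on the other strand.

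DGAT2 had 16.3, 9.55 and 8.20 CPM in control, 8.45, 7.16 and 8.21 with TGF-β, and 8.39, 12.99 and 8.22 with uridine. Control replicate 1 and uridine replicate 2 stood above the other libraries, and these are the libraries with the highest GC slope of their groups. The log2 fold changes were -0.51 (SE 0.29) after TGF-β, -0.20 (SE 0.29) against control with uridine and 0.31 (SE 0.29, edgeR adjusted p = 0.882) between uridine and TGF-β. After TGF-β the value was -0.16 without control replicate 1, and -0.70 to -0.44 without any other 1 library, with no call. It was a call only when the GC slope was a covariate, at a log2 fold change of -0.42. Between uridine and TGF-β the value was 0.06 without uridine replicate 2. On the FPKM scale the TGF-β libraries, at 2.87 to 3.32, were below all control libraries (3.81 to 5.35) and all uridine libraries (3.50 to 4.85). No share of all genes that do the same was computed.

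LPIN1, the phosphatidate phosphatase that makes diacylglycerol and also works as a transcriptional coactivator, had 6.49, 10.2 and 15.5 CPM in control, 8.53, 9.32 and 9.67 with TGF-β, and 9.53, 6.66 and 10.8 with uridine. The control libraries alone spanned more than the treated groups together. Its order within the control and the uridine groups was the reverse of the order of the GC slope, whereas DGAT2 and PNPLA2 followed that order in all 3 groups. With the GC slope as a covariate the LPIN1 log2 fold changes were -0.17, -0.27 and -0.09, without a call. Without it they were -0.23, -0.26 and -0.02 (SE 0.31 each; edgeR adjusted p = 0.999 for uridine over TGF-β).

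PNPLA2 (ATGL), the lipase that removes the first fatty acid from triglyceride, had 196.6, 145.3 and 121.1 CPM in control, 137.0, 121.8 and 132.3 with TGF-β, and 103.9, 120.5 and 101.4 with uridine. The uridine libraries were below all others on this scale, and control and TGF-β overlapped through control replicate 3. On the FPKM scale, which has no TMM scaling, the groups did not overlap, at 58.0 to 66.7 in control, 50.2 to 55.1 with TGF-β and 44.7 to 46.4 with uridine. How many of all genes stand apart in this way was not computed. The log2 fold changes were -0.24 (SE 0.17) after TGF-β and -0.51 (SE 0.17) against control with uridine, neither a call in the fit. Between uridine and TGF-β it was -0.26 (SE 0.17, edgeR adjusted p = 0.772, exact permutation p = 0.1), and with the GC slope as a covariate the value was -0.24 with an adjusted p of 0.00348. Over all genes that covariate fit called 1337 higher and 1217 lower.

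Against control with uridine, PNPLA2 was called lower under 6 of 21 alternatives, among them limma on log2(FPKM + 1) at -0.44. Of the 9 fits that left out a library 1 gave a call, at -0.65 without control replicate 3, and the value was -0.31 without control replicate 1. After TGF-β the left-out values of PNPLA2 ran from -0.39 to -0.03, the latter without control replicate 1, and none was a call.

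PNPLA3 (adiponutrin), a relative of PNPLA2 with activity on retinyl esters and triglyceride, had 10.6, 8.22 and 7.76 CPM in control, 10.2, 8.93 and 8.28 with TGF-β, and 10.1, 11.2 and 9.98 with uridine. The groups overlapped in CPM, and the log2 fold changes were 0.05, 0.24 and 0.19 (SE 0.17 each; edgeR adjusted p = 0.882 for uridine over TGF-β). On the FPKM scale every uridine library, at 3.79 to 3.92, was above every control library (3.09 to 3.26) and every TGF-β library (3.03 to 3.60). No share of all genes that do the same was computed. PNPLA3 shares 148 exonic bases with SAMM50, its neighbour on the same strand.

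G0S2, the small protein that binds PNPLA2 and blocks its activity, had 13.7, 11.3 and 12.1 CPM in control, 15.6, 17.6 and 15.4 with TGF-β, and 16.9, 21.5 and 16.9 with uridine. Every treated library was above every control library, and the 2 treated groups overlapped. The log2 fold changes against control were 0.39 (SE 0.15) after TGF-β and 0.57 (SE 0.15) with uridine, neither a call in the fit. With uridine the higher value was a call under 8 of 21 alternatives, among them DESeq2 at 0.56. Of the 9 fits that left out a library 1 gave a call, without control replicate 1, and the values ran from 0.45 to 0.63. Between uridine and TGF-β the value was 0.19 (SE 0.15, edgeR adjusted p = 0.844, exact permutation p = 0.3).

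**Figure D2:**
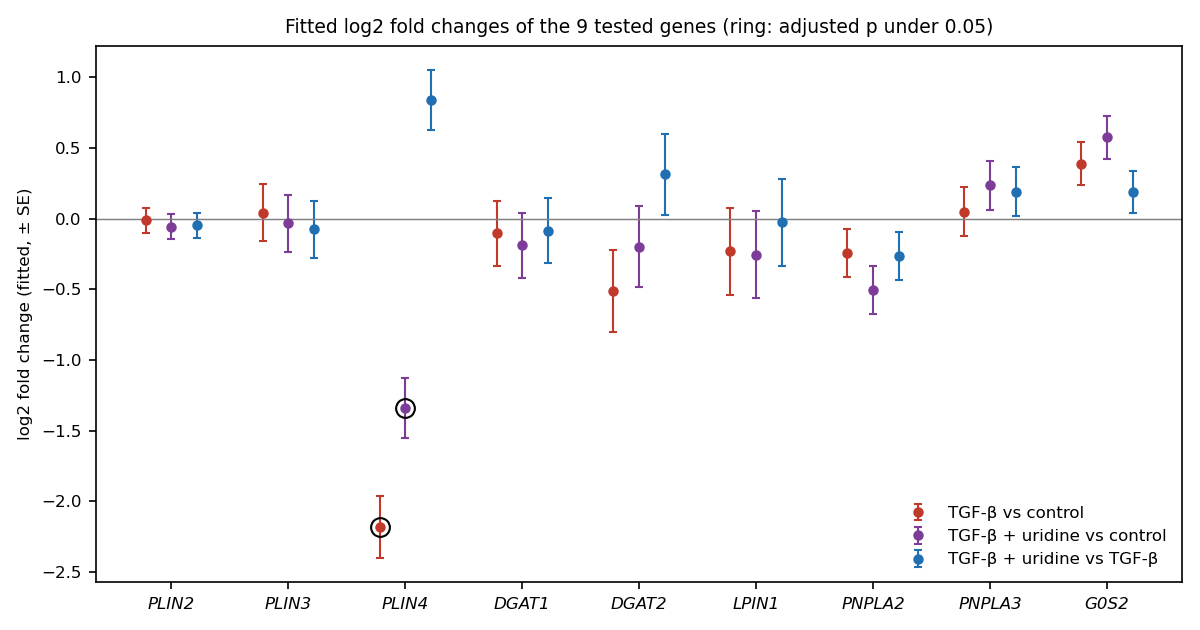
Fitted log2 fold changes with standard errors (vertical axis) of the 9 tested genes in the 3 comparisons, with a ring around values past the threshold. PLIN4 carries both rings, at -2.18 and -1.34, and the other genes lie between -0.51 and 0.57.

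The levels of pairs of enzymes, of a lipase and its inhibitor, and of 2 perilipins were also set against each other within a library, as ratios of FPKM. These pairs were chosen after the values were seen and carry no test. PNPLA2 to G0S2 was 5.20, 4.68 and 3.62 in control, 3.19, 2.51 and 3.12 with TGF-β, and 2.23, 2.03 and 2.18 with uridine. The 3 groups did not overlap, and the mean ratio went from 4.50 ± 0.805 to 2.94 ± 0.374 and 2.15 ± 0.103. The share of other gene pairs whose groups stand apart was not computed. For single genes, 2 groups did not overlap in CPM in 17.7% to 25.6% of all tested genes. PNPLA2 to PNPLA3 was 19.7 ± 1.74 in control, 16.3 ± 1.62 with TGF-β and 11.9 ± 0.351 with uridine, with control and TGF-β overlapping.

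DGAT1 to DGAT2 was 1.06 ± 0.105 in control, 1.37 ± 0.0898 with TGF-β and 1.06 ± 0.124 with uridine. Every TGF-β library was above every control and uridine library on this ratio, while control and uridine overlapped. PLIN3 to PLIN2 was 1.28 ± 0.343, 1.34 ± 0.0582 and 1.32 ± 0.0661, with all groups overlapping.

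**Figure D3:**
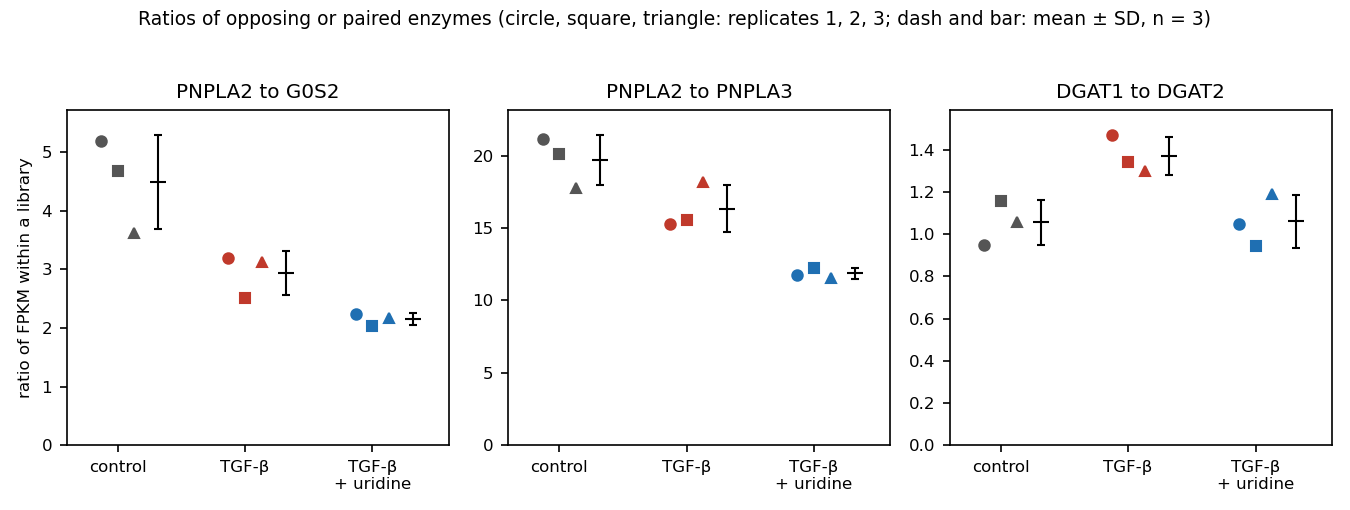
Ratios of FPKM within each library (vertical axes, from 0, no unit) for 3 pairs of enzymes or of an enzyme and its inhibitor, with the mean and SD of 3 libraries beside the points. The ratio of PNPLA2 to G0S2 steps from 4.50 in control to 2.94 with TGF-β and 2.15 with uridine, without overlap. The pairs were chosen after the values were seen and carry no test.

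Counted over the set, 1 of the 9 tested genes was called after TGF-β (PLIN4, lower), beside 3.38% of all 13384 tested genes called in either direction, 2.42% higher and 0.964% lower. With uridine against control it was again PLIN4 alone, beside 5.33% called, 2.89% higher and 2.44% lower. These contrasts were known when the genes were chosen, and they share the control libraries. Between uridine and TGF-β edgeR called 0 of 9, beside 0.0448% of all genes, and DESeq2 and limma called 0 as well. In edgeR 1 of the 9 had an unadjusted p under 0.05, and the share of all genes at that level was not counted. The groups did not overlap in CPM for 2 genes after TGF-β (PLIN4 lower, G0S2 higher), for 3 with uridine against control (PLIN4 and PNPLA2 lower, G0S2 higher) and for 2 between uridine and TGF-β (PLIN4 higher, PNPLA2 lower). The same was seen in 17.7%, 19.7% and 25.6% of all tested genes. The median log2 fold change of the 9 was -0.10, -0.19 and -0.02, against -0.05, -0.01 and 0.02 over all genes.

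Lists of genes around lipid storage gave the wider setting, with 76 genes tested. These lists were also chosen with earlier results known, so the adjusted p-values of their genes against control are no independent support. After TGF-β, 1 of 14 other lipid droplet proteins, 1 of 8 genes of fatty acid uptake and binding and 4 of 14 lipogenic regulators were called, and none of 18 genes of glycerolipid and sterol ester synthesis, of 12 of lipolysis and lipophagy, or of 10 PPAR target genes. The counts at an unadjusted p under 0.05 in the last 3 lists were 2, 3 and 2, and the share of all genes at that level was not counted. The list medians were -0.24 for other droplet proteins, -0.34 for lipogenic regulators, -0.17 for PPAR targets, -0.11 for synthesis, -0.06 for uptake and -0.03 for lipolysis, against -0.05 over all genes. Against control with uridine the called counts were the same for each list except that synthesis had 1 of 18.

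**Figure D4:**
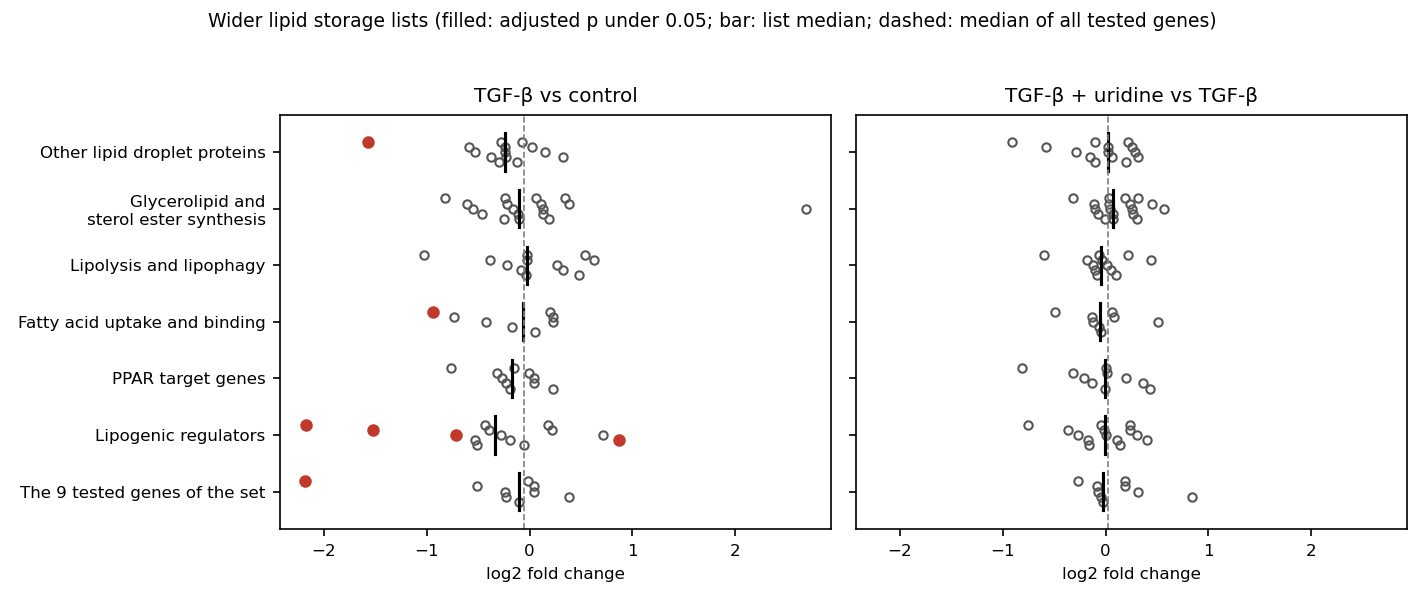
Fitted log2 fold changes (horizontal axis) of the genes of 6 lipid storage lists and of the 9 tested lipid droplet genes, after TGF-β and between uridine and TGF-β, with filled points past the threshold. After TGF-β 1 filled point lies above 0 (KLF4, 0.87), and between uridine and TGF-β there is none.

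The droplet protein that fell with PLIN4 was METTL7A, a methyltransferase-like protein that sits on droplets. Its CPM was 23.0, 38.8 and 46.6 in control, 12.8, 11.8 and 11.8 with TGF-β and 11.8, 9.64 and 12.3 with uridine (log2 fold change after TGF-β -1.58, SE 0.24, edgeR adjusted p = 0.00728). Treated and control libraries did not overlap. The TGF-β call was lost without TGF-β replicate 2 or 3, and with limma on log2(FPKM + 1) over all genes. SLC27A2, a fatty acid transporter and acyl-CoA synthetase, fell from 20.8 ± 5.42 to 10.9 ± 0.642 CPM (log2 fold change -0.94, SE 0.20, adjusted p = 0.0374, edgeR), a call that held in 8 of 21 alternatives and in 1 of the 9 that left out a library.

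Among lipogenic regulators CEBPA, a master factor of adipocyte genes, fell from 10.2 ± 3.08 to 3.52 ± 0.461 CPM after TGF-β (log2 fold change -1.53, edgeR adjusted p = 0.00879). That call was lost without TGF-β replicate 2 or 3, and when only the 2 groups compared were fitted. CEBPD, an early partner of CEBPA in adipogenesis, fell from 35.8 ± 5.43 to 21.9 ± 0.378 CPM (-0.71, edgeR adjusted p = 0.0168). The CEBPD call was lost without control replicate 2 or any 1 TGF-β replicate, and also when only the 2 groups compared were fitted. MLXIPL (ChREBP), the glucose-sensing activator of lipogenic genes, fell from 2.01 ± 0.466 to 0.441 ± 0.123 CPM (-2.18, edgeR adjusted p = 0.00639). KLF4 rose from 19.1 ± 2.42 to 34.9 ± 2.04 CPM (0.87, edgeR adjusted p = 0.00616), and both calls held without any 1 library. The filtered limma fits leave out genes of low mean FPKM, and MLXIPL, by its level, was among these and not tested. Limma on log2(FPKM + 1) over all genes called MLXIPL lower (-0.42, adjusted p = 0.00029) and gave no call for KLF4. MLXIPL had 73 to 86 reads in control and 12 to 22 in TGF-β libraries.

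With uridine against control the same 6 genes were called in the same directions, in a comparison that shares the control libraries. CEBPA stood at 2.72 ± 0.186 CPM (log2 fold change -1.90, edgeR adjusted p = 0.00294) and METTL7A at 11.3 ± 1.42 CPM (-1.68, adjusted p = 0.00502, edgeR), and these 2 calls held in all 21 alternatives. The other calls were lost in some of the 9 fits that left out a library, with MLXIPL kept in 7, KLF4 in 6, and CEBPD and SLC27A2 in 5. SOAT2, a sterol O-acyltransferase, was called higher in addition, from 0.222 ± 0.261 to 1.54 ± 0.143 CPM (2.76, edgeR adjusted p = 0.0436), from 2 to 22 reads in control libraries and with the call lost in 7 of the 9 fits that left out a library. SOAT2 was at 1.47 ± 0.103 CPM with TGF-β alone.

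Between uridine and TGF-β none of the 76 genes was called by edgeR, with 2 of 14 other droplet proteins, 1 of 12 lipolysis genes, 1 of 8 uptake genes and 1 of 10 PPAR targets at an unadjusted p under 0.05 and none in the other lists. The share of all genes at that unadjusted level was not counted. DESeq2 also called 0, and limma on log2(FPKM + 1) called UCP2 lower (-0.76, adjusted p = 0.0122). The medians of the 6 lists lay from -0.06 to 0.07, against 0.02 over all genes. METTL7A differed by -0.11 (edgeR adjusted p = 0.993), CEBPA by -0.37 (adjusted p = 0.776, edgeR) and MLXIPL by 0.40 (adjusted p = 0.846, edgeR). Their uridine values were thus not set apart from TGF-β by the test, nor was that of PLIN4.

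The 3 genes whose log2 CPM ran most like PLIN4 over the 9 libraries were ATOH8, a basic helix-loop-helix factor (Pearson r = 0.98), SMOX, a polyamine oxidase (0.97), and RASSF5, a Ras effector (0.97). ATOH8 was at 3.55 ± 1.04 CPM in control, 0.517 ± 0.0733 with TGF-β and 0.921 ± 0.0820 with uridine. SMOX was at 93.9 ± 17.1, 45.8 ± 2.28 and 64.4 ± 2.55 CPM, and RASSF5 at 12.1 ± 0.152, 8.04 ± 0.302 and 9.84 ± 0.0872 CPM. In each, as in PLIN4, the uridine libraries lay between those of the other groups without overlap. The points share libraries, depth and base composition, and the correlations are descriptions chosen as the highest of all tested genes.

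The nearest genes of PNPLA2 were VPS9D1-AS1 (r = 0.99), the mitochondrially encoded ND1 (0.99) and ECH1 (0.99), an enzyme of fatty acid oxidation in mitochondria and peroxisomes. ND1 was at 7053, 5247 and 3905 CPM in the 3 groups and ECH1 at 133.8, 110.9 and 93.8, in the same order as PNPLA2 at 154, 130 and 109 CPM. VPS9D1-AS1 is an antisense RNA, whose reads cannot be told from those of VPS9D1 without strand. PNPLA3 ran with POLR1D (r = 0.98), DGAT1 with ACOT2 (0.98), a mitochondrial acyl-CoA thioesterase, and DGAT2 with CHCHD10 (0.98). LPIN1 ran with RNMT (r = 0.99), PLIN3 with EEF1A2 (0.997) and PLIN2 with PSMA7 (0.97).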

How the data were processed

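RNA from 9 LX-2 libraries in 3 groups was analysed, with groups taken from the sample labels. The authors deposited whole-number read counts per gene and FPKM values, and both were used for the same 20777 genes. The submitters' processing notes name fastp, HISAT2, HTSeq, R 3.2.0 and GRCh38.p13. Dividing counts by FPKM gave 1 length per gene in all libraries.

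Counts were fitted with edgeR 4.0.16 under R 4.3.3 (TMM scaling, filterByExpr, quasi-likelihood test, 1 model of the 3 groups, two-sided), and p-values were Benjamini-Hochberg adjusted over 13384 tested genes at a threshold of 0.05. The common biological coefficient of variation was 0.289. Totals of 40539751 to 41467124 reads limit precision, and floors cover counting error only. Alternatives were DESeq2 1.42.0, limma 3.58.1 on log2(FPKM + 1) and log2(FPKM + 0.1), other normalizations and filters, a GC slope covariate, a replicate block and leaving out each library. The scripts were tested on simulated data.

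The genes and lists were chosen with earlier results of these data known, so no p is given for the 10 genes against control, and for no list. Adjusted p-values of single list genes come from the fit over all genes and are not independent of that choice. Nor are the p-values between uridine and TGF-β, which share the TGF-β libraries. Besides the 10 genes, the text names up to 3 called genes per list, direction and comparison, genes from the 3 most correlated with each member of mean log2 CPM of at least 1 (all 3 for PLIN4 and PNPLA2, the first for 6 others), and ACTA2. Any others were chosen after their values were seen: HDGFL2, HSF1 and SAMM50 as overlapping genes, UCP2 and CAV1 as calls of alternatives, and PLIN1. The genes most correlated with G0S2 are not reported here.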

Additional observations from a re-analysis of the deposited data

How the results depend on the processing

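PLIN4 stayed lower than control and past the threshold in all 21 alternatives for TGF-β and for TGF-β with uridine, at -2.33 to -2.04 and -1.49 to -1.21 when 1 library was left out. The alternatives refit the libraries known when the gene was chosen, so they show dependence on processing only. Between uridine and TGF-β its left-out range was 0.70 to 0.99 without a call. No call among the 10 genes was lost under any alternative, and no scaling moved the median of all genes by over 0.1 on the log2 scale. The GC slope covariate moved most, with calls between uridine and TGF-β over all genes going from 6 to 1337 higher and 1217 lower. The cause was not tested.

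With the GC slope covariate the 10 genes gave 1 higher and 3 lower calls after TGF-β (G0S2 against DGAT2, PLIN4 and PNPLA2), 1 and 2 with uridine against control, and 1 and 1 between uridine and TGF-β, and the same counts with the block added. Of all 13384 tested genes, the GC slope fit called 1552 higher and 1163 lower after TGF-β. It called 2380 and 1782 with uridine against control, and 1337 and 1217 between uridine and TGF-β. Calls were thus common under that fit and not particular to these genes. DESeq2, upper-quartile scaling and limma gave 1 higher call against control with uridine (G0S2), and limma 2 lower (PLIN4 and PNPLA2). The fits without a library gave 0 to 1 higher and 1 to 2 lower calls there.

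Calls in the lipid storage lists moved more, from 1 higher and 5 lower after TGF-β, 2 and 5 with uridine against control, and 0 and 0 between uridine and TGF-β. After TGF-β the GC slope gave 10 higher and 14 lower, and with the block 9 and 13. Against control with uridine these were 13 and 19, then 12 and 16, and between uridine and TGF-β 8 and 5, then 7 and 5. They stand beside the calls over all genes given above for the GC slope. With the block added, calls over all genes were 1351 higher and 989 lower after TGF-β. They were 2143 and 1613 against control with uridine, and 1076 and 996 between uridine and TGF-β. DESeq2 gave 3 higher after TGF-β. The 3 limma fits gave 4, 4 and 3 higher after TGF-β, 5, 4 and 4 higher against control with uridine, and 1 lower (UCP2) between uridine and TGF-β. Fitting only the 2 groups compared gave 2 lower after TGF-β, 0 higher and 2 lower against control with uridine, and 2 lower (CAV1 and UCP2) between uridine and TGF-β, and a minimum of 10 counts in every library gave 1 higher against control with uridine. Leaving out a library gave 1 to 5 higher and 1 to 8 lower after TGF-β, 0 to 6 higher and 2 to 14 lower against control with uridine, and 0 to 2 lower between uridine and TGF-β, each highest without control replicate 1.

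Uncalled values near 0 changed sign. PLIN3 against control with uridine was 0.0589 with the GC slope, 0.0611 with the block added, 0.0375 with limma on log2(FPKM + 1), filtered or not, and 0.0384 on log2(FPKM + 0.1). LPIN1 between uridine and TGF-β was 0.00143 with limma on log2(FPKM + 1). Without 1 library, PLIN2 ran from -0.0347 to 0.0330, PLIN3 from -0.14 to 0.33, DGAT1 from -0.28 to 0.14, PNPLA3 from -0.0419 to 0.19 and LPIN1 from -0.50 to 0.13 after TGF-β. Against control with uridine PLIN3 ran from -0.21 to 0.24, DGAT1 from -0.37 to 0.0398, DGAT2 from -0.45 to 0.13 and LPIN1 from -0.54 to 0.11, and between uridine and TGF-β DGAT1 ran from -0.23 to 0.0225 and LPIN1 from -0.18 to 0.15.

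As shares of CPM in place of FPKM, PLIN3 held 55.7% with TGF-β and 54.2% with uridine of the perilipin sum, and PLIN4, whose transcript length implied by the FPKM is the longest of the 4, held 8.31%, 1.93% and 3.57% in control, TGF-β and uridine libraries.

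Replicate numbers were not taken to pair libraries, since the labels give no shared culture. Deviations of log2 CPM from the group mean correlated between same-numbered libraries at -0.21 to 0.56. The replicate block alone gave PLIN4 at -2.18, -1.32 and 0.86, PLIN3 against control with uridine at 0.000491, and 1 higher list gene there, and took the calls between uridine and TGF-β over all genes from 6 to 0.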

Other observations

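The following genes were chosen after their values were seen, and none passed the adjusted threshold in the fit. ABHD5 (CGI-58), the coactivator that PNPLA2 needs for full activity, was at 8.94 ± 1.56 CPM in control, 13.8 ± 1.60 with TGF-β and 12.7 ± 0.902 with uridine (SD, n = 3). Every treated library was above every control library, and the log2 fold changes were 0.63 after TGF-β (edgeR adjusted p = 0.109) and -0.13 between uridine and TGF-β (adjusted p = 0.964, edgeR). After TGF-β, ABHD5 was called higher by DESeq2 and with the GC slope as a covariate. PPARG, the receptor that drives many perilipin genes in adipocytes, was at 23.7 ± 3.17, 19.5 ± 1.27 and 24.1 ± 2.31 CPM, with every uridine library above every TGF-β library (log2 fold change 0.30, SE 0.14, edgeR adjusted p = 0.590), a difference called when the GC slope was a covariate. SREBF1, the gene of SREBP-1, was at 374.8 ± 75.6, 260.1 ± 11.2 and 281.6 ± 17.7 CPM, with the treated libraries below all control libraries (log2 fold change after TGF-β -0.53, edgeR adjusted p = 0.0927). It was called lower after TGF-β in 8 of the 21 alternatives. Between uridine and TGF-β the SREBF1 log2 fold change was 0.11 (edgeR adjusted p = 0.954), called higher only with the GC slope as a covariate.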
